A study of Mus musculus with 6 samples.

Results

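Granzymes, perforin and their partner effectors are the weapons of cytotoxic lymphocytes, and 6 of their genes are described here: the granzymes Gzma, Gzmb and Gzmk, the pore-forming protein gene Prf1, the granule membrane protein gene Nkg7 and the death ligand gene Fasl. They were taken from the array by gene symbol, and each had 1 row, which made 6 of the 19494 genes measured. The cells on the arrays were regulatory T cells (Tregs), sorted out of tumorous colonic lamina propria from double-reporter mice of the genotype Foxp3-RFP x GPR15-GFP, in which colorectal cancer had been induced with azoxymethane (AOM), a carcinogen, and dextran sulfate sodium (DSS), which injures the colon lining. Both fractions were CD4-stained, RFP+ cells of the same genotype and treatment. They differed in the GFP reporter of GPR15, a homing receptor of T cells bound for the large intestine: 3 samples were labelled GPR15-GFP+ and 3 GPR15-GFP-, and the titles number the samples of each fraction 1, 5 and 6. The sources used here gave no age, sex, strain background or pooling of animals, and p-values therefore measure only the spread between these samples.

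Cytotoxic cells kill by 2 routes. In the granule route, perforin opens membranes and lets granzymes, a family of serine proteases stored with the proteoglycan serglycin, into the target cell. Granzymes A and K cut after basic residues, and granzyme B cuts after aspartate and activates caspases. In the other route, Fas ligand on the cell surface engages the death receptor Fas. Tregs can also carry these effectors: granzyme B and perforin have been described in Tregs that kill other immune cells, in tumours among other places. NKG7 takes part in the release of cytotoxic granules.

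The regulatory sequence in front of the 3 granzyme genes is shown because these genes parted ways in the data: Gzma lay lower in samples labelled GPR15+, Gzmb lay higher and Gzmk, the neighbour of Gzma on chromosome 13, showed no clear difference. Each line holds the 250 bases before the annotated start, 5′ to 3′ on the gene's strand, from RefSeq on GRCm38.p6. The windows are chr13:113100982-113101231 (minus strand) for Gzma, chr13:113180966-113181215 (minus strand) for Gzmk and chr14:56262335-56262584 (minus strand) for Gzmb. Capitals mark letters that match the core motifs of RUNX factors (TGTGGT), T-box factors (GTGTGA) or AP-1 (TGANTCA) on either strand.
Gzma: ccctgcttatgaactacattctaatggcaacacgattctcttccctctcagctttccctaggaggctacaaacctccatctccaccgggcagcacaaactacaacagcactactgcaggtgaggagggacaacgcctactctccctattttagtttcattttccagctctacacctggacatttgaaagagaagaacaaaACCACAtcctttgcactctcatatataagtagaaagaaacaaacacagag
Gzmk: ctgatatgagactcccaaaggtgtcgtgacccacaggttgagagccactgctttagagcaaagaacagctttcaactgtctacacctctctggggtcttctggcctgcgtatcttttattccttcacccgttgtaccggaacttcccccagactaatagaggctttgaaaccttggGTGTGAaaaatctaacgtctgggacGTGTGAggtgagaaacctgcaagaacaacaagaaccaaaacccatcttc
Gzmb: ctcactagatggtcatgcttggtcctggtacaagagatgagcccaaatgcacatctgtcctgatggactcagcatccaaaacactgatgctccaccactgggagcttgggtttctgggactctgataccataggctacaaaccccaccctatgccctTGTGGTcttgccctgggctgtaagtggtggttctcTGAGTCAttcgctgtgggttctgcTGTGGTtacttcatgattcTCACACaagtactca
The Gzma window held 1 RUNX match, on the opposite strand at 50 to 45 bases before the start, and no T-box or AP-1 match. The Gzmk window held 2 T-box matches and no RUNX match. The Gzmb window held 2 RUNX matches, at 93 to 88 and at 34 to 29 bases before the start, 1 AP-1 match and 1 T-box match. Of 32851 windows of the same length in front of mouse genes, 14.0% held the RUNX letters, 12.3% the T-box letters and 6.75% the AP-1 letters. These shares count windows with at least 1 match, and windows with 2 were not counted apart. Such matches lie in front of many other genes, and each is a description of sequence only. The cAMP response motif TGACGTCA was in none of the windows of the 6 genes, against 1.55% of all windows, and the STAT motif TTCNNNGAA was in that of Nkg7 alone, against 7.02%. No motif overlapped another in the 3 windows shown.

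The values are deposited log2 intensities, so a difference of 1 is a doubling, and each difference is the mean of the GPR15+ arrays less that of the GPR15- arrays. Of the 19494 genes tested with limma, 0 passed an adjusted p of 0.05 (0%), and none of the 6 members did (0% of all genes with the replicate number as a block too). At an unadjusted p under 0.05, 1214 genes were found (6.23%). A simulation of the same size recovered 32% of genes changed by 1 log2 unit and 83% of those changed by 2, with 4 unchanged genes called. Its values were drawn independently for each gene and array, without deviations shared within or between arrays, so these shares may not hold for the real arrays. The arrays numbered 1 had a narrower spread of values (SD 1.63 in both fractions) than the other 4 (1.74 to 1.87), and the median difference of all genes was -0.06. The T cell markers Cd3e, Cd3d, Cd3g, Cd4, Cd2, Cd5 and Thy1 each had a brighter row than at least 90.4% of genes, and Foxp3 was not analysed here. Of these 7 T cell markers 5 lay above 0, with a median of 0.14 (0.02 after quantile normalization). Only Thy1, at 0.46, had an unadjusted p under 0.05. Gpr15 itself lay lower in samples labelled GPR15+, by 0.65 ± 0.22 (SE), a difference of -0.65, against the label. The limma p was 0.0172 unadjusted and 0.773 adjusted. Its fractions did not overlap, and samples of equal number differed by -0.28, -1.26 and -0.43. Gpr15 was lower under each of 3 other scalings too, so every direction given rests on the labels.

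**Figure D1:**
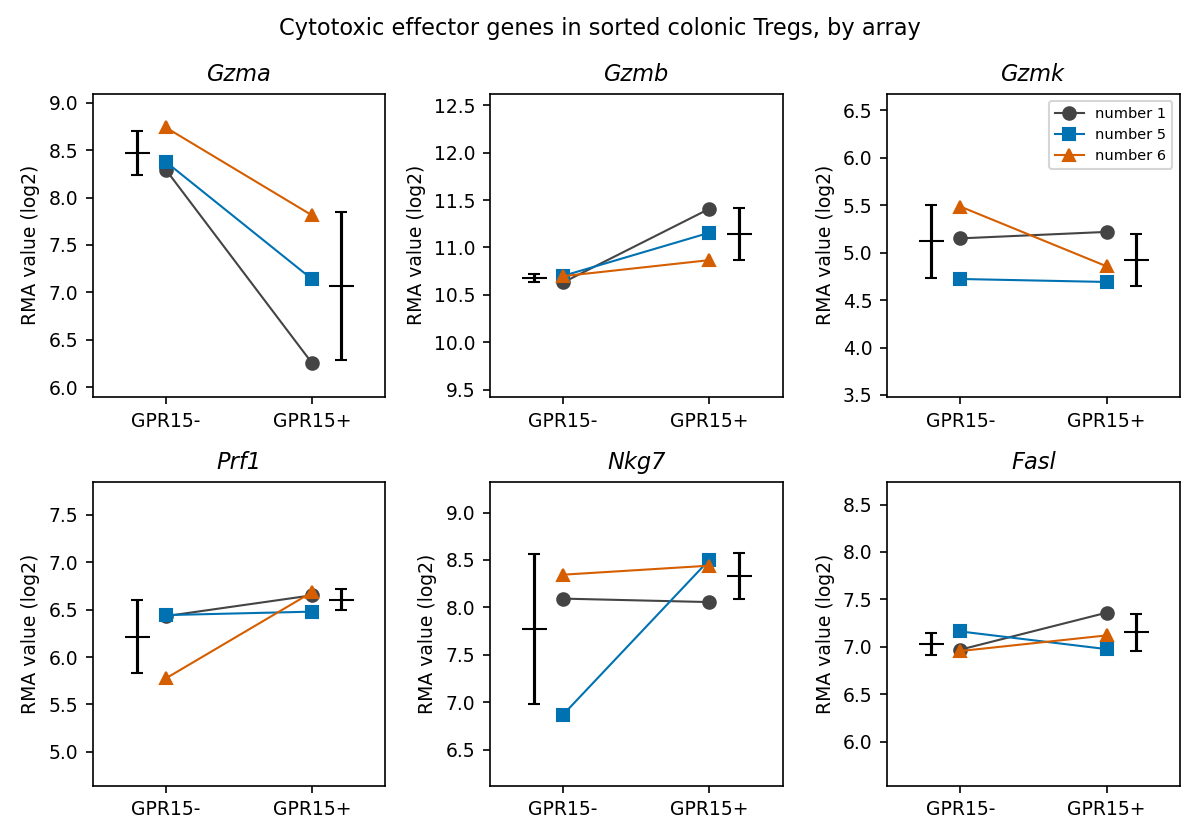
RMA values (log2) of the 6 genes on each array, by fraction; lines join samples of equal title number, and the bars beside them are the mean ± SD of 3 arrays. All panels span the same number of log2 units. The 3 values of Gzma labelled GPR15+ lie below the 3 labelled GPR15-, at 6.25 to 7.81 against 8.29 to 8.74, while those of Gzmb lie above.

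Gzma encodes granzyme A, a protease that cuts after lysine and arginine and kills without caspases. It measured 8.29, 8.38 and 8.74 in the GPR15- samples numbered 1, 5 and 6, and 6.25, 7.14 and 7.81 in the GPR15+ samples of the same numbers. The fractions did not overlap, and the sample labelled GPR15+ numbered 1 was the lowest of all. The means were 8.47 ± 0.24 (SD, n = 3) and 7.07 ± 0.78 (SD, n = 3). The difference was -1.40 ± 0.37 (SE; 95% interval -2.25 to -0.55), which is 2.64-fold lower, and the limma p adjusted over all genes was 0.773. With the replicate number as a block the adjusted p from limma was 0.183. Among all 19494 genes only 2 had a lower difference, so Gzma ranked 3 from the bottom by size and 128 by unadjusted p. The pairs gave -2.04, -1.24 and -0.93, all below 0. The GPR15+ samples lay further from each other than the highest of them (7.81) lay from the lowest GPR15- sample (8.29). The difference was -0.99 without GPR15+ replicate 1 (limma adjusted p = 0.155) and -1.77 without GPR15+ replicate 6. Weighting the arrays by their quality moved the difference to -0.83 with limma adjusted p = 0.0471; that estimate of the weights did not converge and gave the sample labelled GPR15+ numbered 6 a weight of 6.56 against 0.191 for that numbered 1. Weights estimated gene by gene gave -0.99 and a limma adjusted p of 0.117. In bulk samples of sorted cells, fewer cells with the transcript and less transcript per cell cannot be told apart.

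Gzmb encodes granzyme B, the caspase-activating granzyme, and its row was the brightest of the 6, brighter than 98.7% of genes. It lay at 10.63, 10.70 and 10.70 in the GPR15- samples and at 11.41, 11.16 and 10.87 in the GPR15+ samples numbered 1, 5 and 6. The GPR15- samples were nearly equal, and each GPR15+ sample lay above them. The means were 10.68 ± 0.04 (SD, n = 3) and 11.14 ± 0.27 (SD, n = 3), a difference of 0.47 ± 0.18 (SE; 95% interval 0.04 to 0.90) or 1.38-fold higher. It did not pass (limma adjusted p = 0.773, or 0.381 with the replicate block), though its p was under 0.05 before adjustment. In the 3 pairs it came to 0.78, 0.45 and 0.17. The order of the pairs was the same as for the size of the Gzma difference, with number 1 the largest and number 6 the smallest. The unadjusted p of Gzmb exceeded 0.05 when any 1 array other than GPR15+ replicate 6 was left out (0.0755 to 0.0864, limma), after quantile normalization (0.151) and after removal of the intensity trend (0.137). With array weights the difference was 0.22 (limma adjusted p = 0.241), and with gene-by-gene weights 0.29 (limma adjusted p = 0.270).

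As both genes were read on the same arrays, the distance between their log2 values cancels a shift of a whole array, though not a narrower spread such as that of the arrays numbered 1. Gzmb minus Gzma was 2.34, 2.32 and 1.96 in the GPR15- samples and 5.15, 4.02 and 3.05 in the GPR15+ samples numbered 1, 5 and 6. The distance was wider by 1.87 in samples labelled GPR15+, with means of 4.07 ± 1.05 (SD, n = 3) and 2.21 ± 0.21 (SD, n = 3). Its size in any one sample has no meaning as a ratio of transcripts, since probes differ in brightness, and this measure was chosen after the values were seen. An exact permutation test of 3 against 3 samples cannot go below 0.1 (2-sided), so none is used as support.

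Gzmk encodes granzyme K, a tryptase like granzyme A. It was dim, with only 17.6% of genes dimmer, and measured 5.15, 4.72 and 5.49 in the GPR15- samples against 5.22, 4.69 and 4.86 in the GPR15+ samples. The fractions overlapped throughout. The difference was -0.20 ± 0.24 (SE; 95% interval -0.76 to 0.36; limma adjusted p = 0.879), and the pairs gave 0.07, -0.03 and -0.63. It was -0.40 with GPR15- replicate 5 left out and -0.35 with GPR15+ replicate 1 left out. It shrank to -0.01 when GPR15- replicate 6 was dropped and to -0.08 when GPR15+ replicate 5 was. Gzma and Gzmk are next to each other on chromosome 13, and the genes that flank them there are Gpx8, a glutathione peroxidase family member, at -0.22 ± 0.26 (SE), and Esm1, a secreted proteoglycan of endothelium, at -0.39 ± 0.20 (SE). Neither passed (limma adjusted p = 0.873 and 0.773). None of the 3 neighbours lay as low as Gzma, but with Gzma 3 from the bottom of all genes, almost no gene could. On chromosome 14 the neighbours of Gzmb were the granzyme gene Gzmc, at 0.37 ± 0.19 (SE), and Atp12a, an ion pump gene, at -0.28 ± 0.21 (SE), with limma adjusted p of 0.773 and 0.808.

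Prf1 encodes perforin, which the granzymes need to enter target cells. It lay at 6.43, 6.44 and 5.77 in the GPR15- samples and at 6.65, 6.48 and 6.68 in the GPR15+ samples numbered 1, 5 and 6. The fractions did not overlap, but the highest GPR15- sample and the lowest GPR15+ sample were nearly level, and most of the difference came from the low GPR15- sample numbered 6. The means were 6.22 ± 0.38 (SD, n = 3) and 6.60 ± 0.11 (SD, n = 3), and the difference was 0.39 ± 0.22 (SE; 95% interval -0.12 to 0.90; limma adjusted p = 0.773). The pairs gave 0.22, 0.04 and 0.91, and without GPR15- replicate 6 the difference was 0.17.

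Nkg7 encodes a membrane protein of cytotoxic granules. It measured 8.09, 6.87 and 8.35 in the GPR15- samples and 8.06, 8.50 and 8.44 in the GPR15+ samples. One array stood apart, the GPR15- sample numbered 5, and the other 5 lay between 8.06 and 8.50, so the fractions overlapped. The difference was 0.56 ± 0.37 (SE; 95% interval -0.30 to 1.42; limma adjusted p = 0.780), with pair values of -0.04, 1.63 and 0.10. Without GPR15- replicate 5 it was 0.11, and without GPR15- replicate 6 it was 0.85.

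Fasl encodes Fas ligand. It varied least of the 6, at 6.97, 7.16 and 6.96 in the GPR15- samples and 7.36, 6.98 and 7.12 in the GPR15+ samples. The fractions overlapped, and the difference was 0.12 ± 0.17 (SE; 95% interval -0.28 to 0.52; limma adjusted p = 0.894). The pairs gave 0.39, -0.19 and 0.16. Leaving out GPR15+ replicate 1 gave 0.02, GPR15- replicate 5 gave 0.19 and GPR15+ replicate 5 gave 0.21. Without both arrays numbered 1 it turned to -0.011.

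**Figure D2:**
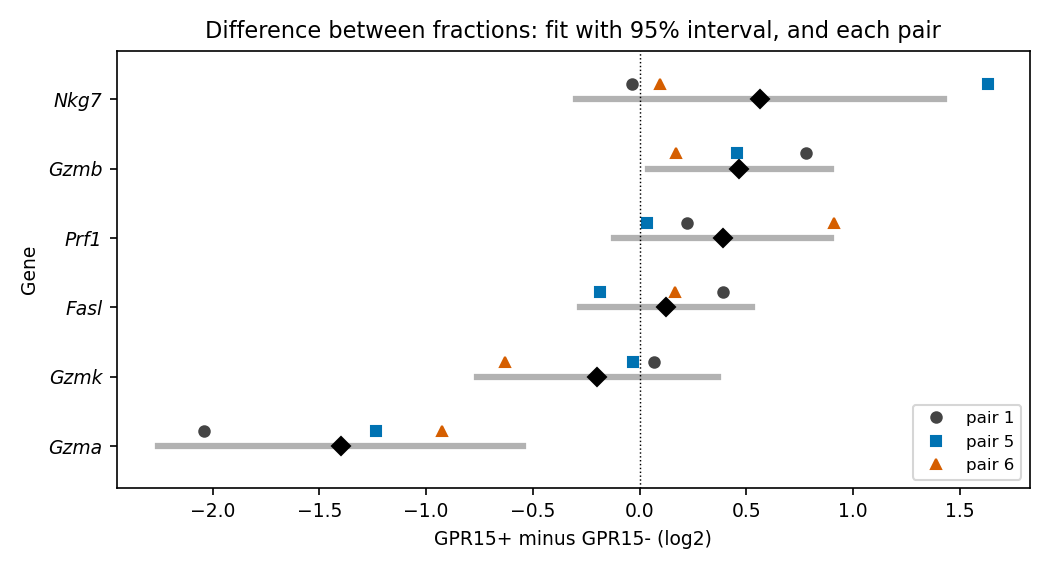
Difference between fractions in log2 units (GPR15+ minus GPR15-) for each gene: the diamond is the limma estimate, the grey bar its 95% interval, and the coloured marks the 3 pairs of equal title number. The intervals of Gzma and Gzmb leave out 0, on opposite sides, before adjustment over all genes.

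As a group the 6 genes had no common direction. Of them 4 lay above 0 and 2 below, with a median of 0.26 (0.13 without GPR15- replicate 6 and 0.15 without GPR15- replicate 5) beside -0.06 for all genes, and 40.8% of all genes lay above 0. At an unadjusted p under 0.05 there were 2 of 6 (Gzma and Gzmb), beside 6.23% of all genes, and the same 2 with the replicate block, beside 12.4%. Fractions did not overlap for 3 of 6 (Gzma, Gzmb and Prf1), beside 13.3% of all genes. In the lower direction that was 1 gene (9.17% of all genes) and in the higher direction 2 (4.12%). The 3 pairs had 1 sign for those same 3 genes, beside 37% of all genes. Counts over 6 genes are small, and no test was made of them.

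**Figure D3:**
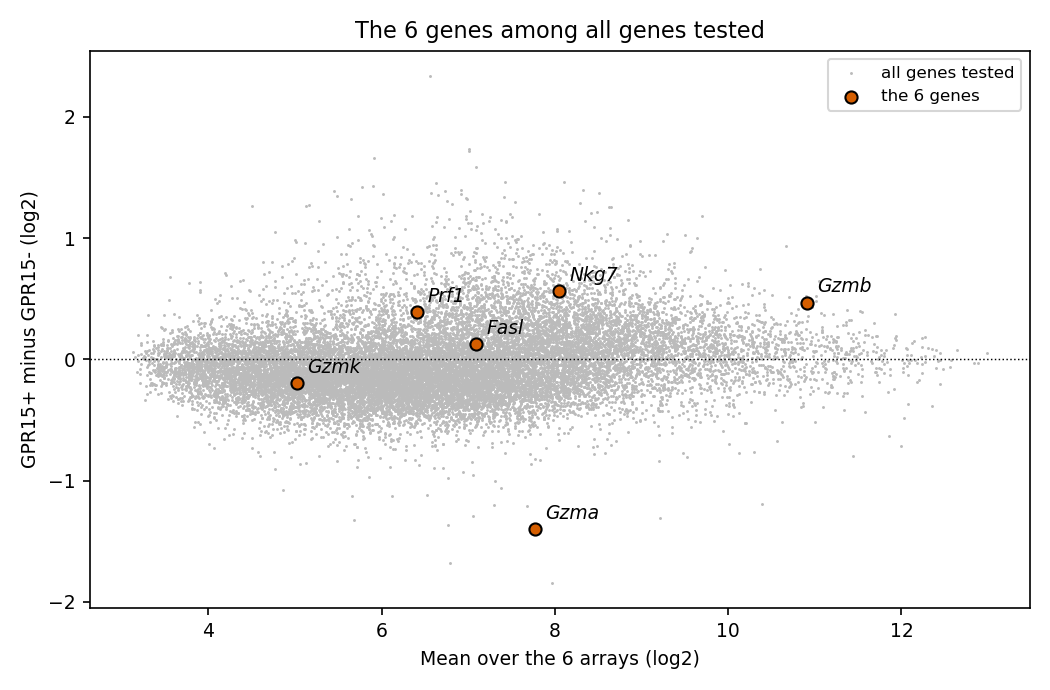
Difference (GPR15+ minus GPR15-, log2) against the mean over the 6 arrays (log2) for all 19494 genes in grey, with the 6 genes marked. Gzma stands at the lower edge of all genes at -1.40, and Gzmb is the brightest of the 6 at 0.47.

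The genes whose profile over the 6 arrays came closest to that of Gzma, by the root mean square distance of values centred on each gene's mean, were Ccnb2 (distance 0.27), which encodes the mitotic cyclin B2, Tpbg (0.39), a trophoblast glycoprotein gene, and Pxdc1 (0.41). Ccnb2 lay at 7.90, 8.51 and 8.42 in the GPR15- samples and at 6.63, 6.98 and 7.61 in the GPR15+ samples, a difference of -1.21 ± 0.29 (SE; limma adjusted p = 0.773). As in Gzma, the fractions were apart, and the GPR15+ sample numbered 1 was lowest and that numbered 6 highest of its fraction. For Nkg7 the closest were Ecpas (0.15), a proteasome adaptor gene, Ccdc25 (0.19) and Cfp (0.22), which encodes the complement factor properdin. All 3 shared with Nkg7 the low GPR15- sample numbered 5: Ecpas read 5.11 there and 6.16 to 6.36 on the other 5 arrays. Such likenesses are largely given by the choice of these nearest genes on the same 6 arrays. The other 4 genes varied too little (SD over the 6 arrays under 0.5) for this measure.

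Genes around these effectors were followed in 7 lists of 92 genes, of which 85 were measured. None passed over all genes. At an unadjusted p under 0.05 there were 5 higher and 2 lower, 8.24% of the genes beside 6.23% of all genes. With the replicate block 12 were higher and 2 lower, together 14, or 16.5% beside 12.4%. Among all genes, 1214 of the 2411 called with the block were lower. Fractions were apart for 9, or 10.6% beside 13.3%. Counted in either direction, these shares are near those of all genes. The calls with the block leaned to the higher side, which was not tested. The median was 0.02 (-0.01 after quantile normalization).

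The other granzymes measured were Gzmc, Gzmf, Gzmg, Gzmm and Gzmn, and none of the 5 reached an unadjusted p of 0.05. Gzmc lay at 0.37 ± 0.19 (SE) and Gzmn at -0.30 ± 0.23 (SE). Gzmm, the granzyme of innate-like lymphocytes that cuts after methionine, lay at -0.19 ± 0.27 (SE), and Gzmf at -0.04 ± 0.20 (SE). Their median was -0.05 as deposited and turned positive under each other scaling (0.02 to 0.07). Granzyme genes of the Gzmb cluster are close in sequence, so their probes may not tell them apart.

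The list for storage and processing had a median of 0.02, which turned to -0.12 with quantile normalization and to -0.06 with the intensity trend removed. Srgn, the serglycin that holds granzymes in the granule, differed by -0.10. Ctsc, the cathepsin that turns progranzymes into active enzymes, lay at 0.24 ± 0.23 (SE). Ctsh, another cathepsin, measured 6.92, 6.98 and 7.39 in the GPR15- samples and 6.68, 6.68 and 6.31 in the GPR15+ samples, a difference of -0.54 ± 0.20 (SE; limma adjusted p = 0.773). Igf2r encodes the mannose 6-phosphate receptor that sorts granzymes to granules and that has been described as a surface receptor for granzyme B. It lay at 8.36, 8.16 and 8.30 in the GPR15- samples and at 10.05, 9.58 and 8.63 in the GPR15+ samples numbered 1, 5 and 6. The fractions did not overlap, and the difference was 1.15 ± 0.34 (SE; limma adjusted p = 0.773, or 0.270 with the block). Its pairs gave 1.69, 1.42 and 0.33, so that, as for Gzma and Gzmb, number 1 differed most and number 6 least. The other sorting receptor, M6pr, differed by -0.02.

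In the list for granule docking and release 11 of 15 genes lay above 0, with a median of 0.05 (-0.02 after quantile normalization, with 8 of 15 below 0). None reached an unadjusted p of 0.05, and 3 of 15 did with the replicate block, beside 12.4% of all genes. These were Snap23, a membrane fusion protein gene, at 0.72 ± 0.33 (SE) and the syntaxin Stx8 at 1.05 ± 0.50 (SE). The third was Lyst, the lysosomal trafficking regulator lost in Chediak-Higashi syndrome, at 0.52 ± 0.29 (SE). Stx8 was dim and differed by -0.14 in pair 1 against 1.40 and 1.88 in pairs 5 and 6. Stxbp2, which encodes a partner of syntaxins in granule fusion, was the 1 gene of 15 whose fractions did not overlap, beside 13.3% of all genes. It lay at 0.20 ± 0.15 (SE) and at 0.32, 0.23 and 0.05 in the pairs. Unc13d, the priming factor of cytotoxic granules, differed by -0.14, Stx11 by 0.01 and the small GTPase gene Rab27a by 0.05.

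Serpins restrain granzymes and related proteases, and of 9 listed 8 were measured, 4 on each side of 0. Serpinb9, the inhibitor of granzyme B, lay at 0.21 and Serpinb6b at 0.26. Serpina3f, of the antichymotrypsin family, differed by 0.84 ± 0.32 (SE; limma adjusted p = 0.773), and Serpinb1a by 0.53 ± 0.27 (SE), which had a p under 0.05 before adjustment only with the replicate block (SE 0.16; limma adjusted p = 0.344). Serpinb6a lay at -0.58 ± 0.31 (SE) and Serpinb1b at -0.25 ± 0.22 (SE). These serpins have close paralogs that an array may not separate.

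On the death receptor side 8 of 11 measured genes lay above 0, with a median of 0.13. Fas, the receptor for Fas ligand, differed by 0.07 and its adaptor Fadd by 0.10. Cflar encodes FLIP, which blocks caspase activation at the receptor. It measured 8.95, 8.83 and 9.36 in the GPR15- samples and 9.73, 9.70 and 9.71 in the GPR15+ samples, a difference of 0.67 ± 0.19 (SE; limma adjusted p = 0.773). Casp8, the caspase that FLIP restrains, lay at 0.46 ± 0.20 (SE), the cytokine Tnf at 0.68 ± 0.35 (SE) and Lta at -0.28 ± 0.19 (SE). Both Casp8 and Tnf had an unadjusted p under 0.05 with the replicate block and not without it (limma, 0.0189 and 0.00272 against 0.0516 and 0.0860).

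None of the 14 measured transcription factors of cytotoxic lymphocytes reached an unadjusted p of 0.05, with or without the block. The T-box factors Tbx21 and Eomes, which drive granzyme and perforin genes in killer cells, lay at 0.00 and at -0.25 ± 0.18 (SE). Runx3 differed by -0.16, Prdm1, which encodes BLIMP1, by 0.30, Hopx by -0.24 ± 0.17 (SE), Id2 by -0.28 ± 0.21 (SE) and Id3 by 0.26 ± 0.22 (SE).

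Other effector and receptor genes of cytotoxic lymphocytes lay on both sides of 0 (9 of 21 above), and the sign of their median (-0.09) turned with quantile normalization and with the intensity trend removed. The inhibitory receptor gene Lag3 measured 6.48, 6.33 and 6.69 in the GPR15- samples and 7.25, 7.60 and 7.86 in the GPR15+ samples, a difference of 1.07 ± 0.21 (SE; limma adjusted p = 0.773, or 0.176 with the block). Among killer lectin-like receptors, Klrg1, a marker of terminal effector cells and of effector Tregs, lay at -0.77 ± 0.24 (SE) and Klrc1, which encodes the inhibitory NKG2A, at 1.07 ± 0.32 (SE). The Tec family kinase gene Txk lay at 0.76 ± 0.44 (SE), or ± 0.17 with the replicate block, where its p was under 0.05 before adjustment (limma adjusted p = 0.270). Klrg1 lay below 0 in each pair (-0.68, -1.10 and -0.52), while Lag3, Klrc1 and Txk lay above 0 in each. Among all genes 37% had 1 sign in the 3 pairs. The effector cytokine Ifng differed by -0.09 and the chemokine Ccl5, which is stored in cytotoxic cells, by -0.14.

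**Figure D4:**
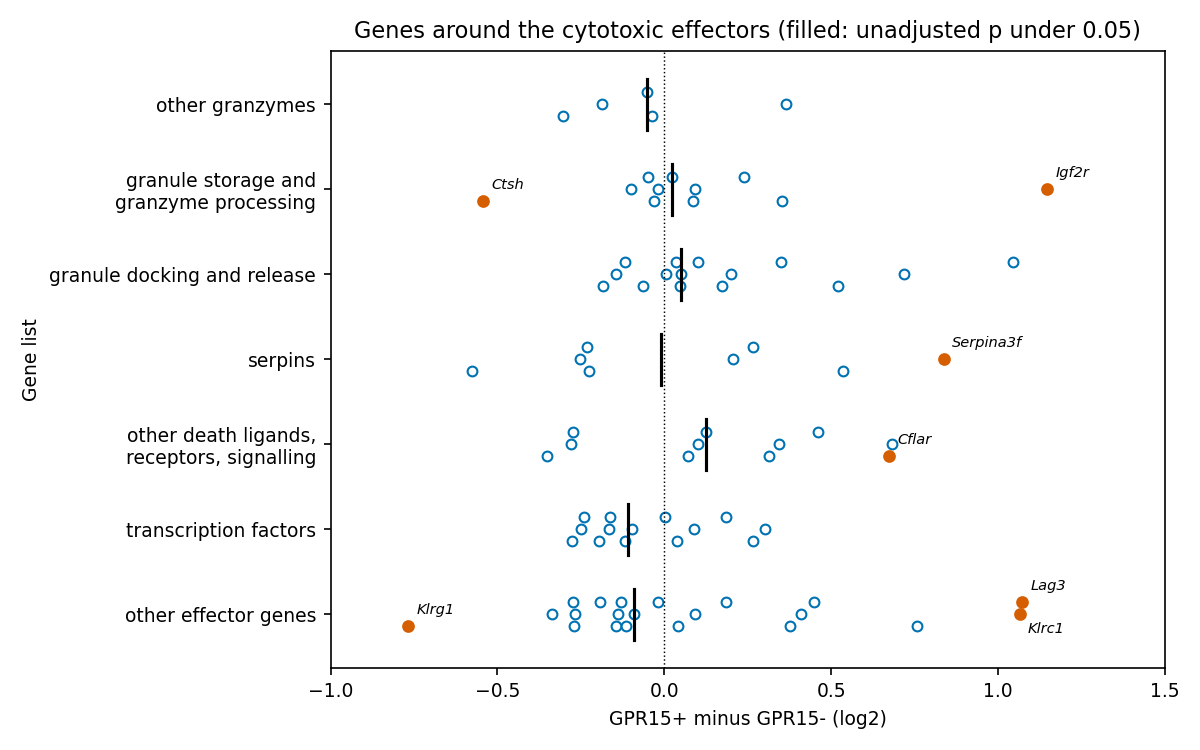
Differences (GPR15+ minus GPR15-, log2) of the 85 measured genes in the 7 lists; each circle is a gene, filled and named where the unadjusted limma p is under 0.05, and the black bar is the list median. Of the 7 filled genes 5 lie above 0 and 2 below, and none passed after adjustment over all genes.

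Cytotoxic effectors are also made by cells other than Tregs, so markers of those cells were read on the same arrays. RMA values have no true 0, and dim rows cannot be called absent. For CD8 T and NK cells 8 of 10 markers were measured, 6 lay below 0, none had an unadjusted p under 0.05 and the median was -0.10. Their mean log2 level ranged from 5.74 to 6.08 in the GPR15- samples and from 5.72 to 5.87 in the GPR15+ samples. Of the defining genes Cd8a differed by -0.13, Cd8b1 by -0.07 and Ncr1 by -0.35 ± 0.30 (SE), Xcl1 by -0.27 ± 0.21 (SE) and Klra9 by 0.35 ± 0.26 (SE). For γδ T and innate lymphoid cells 4 of 8 were measured and 3 lay below 0. Their mean level was 8.70 to 9.12 in the GPR15- samples and 8.28 to 8.64 in the GPR15+ samples, which did not overlap. That mean rests on 4 genes, of which Kit differed most, and Kit and Il7r were brighter than 97.5% and 97.4% of genes. Taken singly, only Blk of the 4 had fractions that did not overlap, beside 13.3% of all genes. Kit, a receptor of innate lymphoid and mast cells, lay at -1.19 ± 0.68 (SE), with pairs of -1.12, -1.30 and -1.16, an SE of 0.15 with the replicate block and limma adjusted p of 0.773 without and 0.176 with it. Sox13 lay at -0.38 ± 0.22 (SE; 0.15 with the block, where its p fell under 0.05 before adjustment), Blk at -0.37 ± 0.16 (SE) and Il7r at 0.06 ± 0.18 (SE). For mast cells and basophils, which carry proteases of the same family, 8 of 12 lay below 0, and the mean level was 5.51 to 5.69 against 5.29 to 5.72. Fcer1a (-0.52) and Cma1 (-0.46) were lower at an unadjusted p under 0.05 and dim, while Cpa3 (0.32) and Gata2 (-0.37) were not called even so.

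Markers of the 7 other cell classes, CD8 T and NK cells included, lay mostly below 0, as did a smaller majority of all genes. Of 50 such markers measured, 39 (78%) lay below 0, beside 59.2% of all genes, and their median was -0.20 beside -0.06. With each array centred on its median 36 (72%) did, beside 49.1% of all genes, and the median was -0.13. After quantile normalization it was -0.10, with 72% below 0 beside 54.1% of all genes. With the intensity trend removed it was -0.09, with 70% below 0 beside 50%. At an unadjusted p under 0.05, 8 were lower and 0 higher, beside 3.44% lower and 2.79% higher of all genes. With the replicate block 12 (24%) were lower and 0 higher, beside 6.23% lower of all genes and 12.4% in either direction. The 8 without the block were 2 each of mast and epithelial cell markers (Phgr1 at -0.51 and Vil1 at -0.59) and 1 each for γδ T and innate lymphoid cells, macrophages (Lyz2, -0.48), neutrophils (Cxcr2, -0.52) and B and plasma cells (Mzb1, -0.59). Other markers of the same classes hardly differed, such as Epcam (0.0003) and Cdh1 (-0.09) of epithelial cells and C1qb (0.01) of macrophages. Of all markers in these classes, 8 of 10 for epithelial cells and 6 of 7 for macrophages lay below 0. The mean macrophage level was 6.00 to 6.24 in the GPR15- samples and 5.61 to 6.16 in the GPR15+ samples, that of neutrophils 5.69 to 6.03 and 5.42 to 5.88, that of B and plasma cells 5.86 to 6.18 and 5.46 to 5.74, and that of epithelial cells 6.61 to 6.71 and 6.29 to 6.67. The part of these cells in the Gzma difference was not tested.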

How the data were processed

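Each of 6 samples was hybridised to a 1-colour Affymetrix array after biotin labelling with a kit for small RNA amounts, per the labels' protocols. The authors deposited log2 values summarised by RMA (background correction, quantile normalization and probe summarisation), per the submitters' processing notes; its version, software and detection calls are not given in the sources used here. Of 22142 rows, 19527 had 1 gene symbol, 0 several and 2615 none; the row with the highest mean was used for the 33 genes with several, which left 19494 genes. No columns were identical.

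The fit was limma 3.58.1 (lmFit, eBayes; R 4.3.3) with no block, p-values were adjusted by Benjamini-Hochberg over all genes at a threshold of 0.05, and the fit was tested on simulated data. Same-numbered samples deviated together from their fraction's means, with correlations of 0.567, 0.381 and 0.319 for the numbers 1, 5 and 6, each past the mark of 0.1. Unlike numbers also correlated, GPR15- replicate 6 with GPR15+ replicate 5 at 0.315 and the reverse at 0.213, so number 1 stands apart more clearly than 5 from 6. These unlike numbers passed the mark of 0.1 too, so it cannot establish that equal numbers are pairs. The main fit and its p-values left the numbers unpaired. The replicate block is given beside it where it moved a count, or moved a named gene of the members or pathway lists across an unadjusted 0.05. The members, lists and tests were chosen with earlier results of these data known. Named genes were the 6 members, Gpr15, Ptprc and Cd4, up to 4 genes per list by smallest p, the 3 nearest profiles of members with an SD of at least 0.5, and neighbours in the RefSeq table (GRCm38.p6). Srgn, M6pr, Gzmg, Stx11, Unc13d, Rab27a, Serpinb9, Serpinb6b, Fas, Fadd, Tbx21, Runx3, Prdm1, Ifng, Ccl5, Cd8a, Cd8b1, Epcam, Cdh1 and C1qb were added for their roles after their values were seen. The difference was 0.15 ± 0.22 (SE) for Ptprc (CD45) and 0.14 ± 0.27 (SE) for Cd4. Other scalings were median centring, quantile normalization and removal of the intensity trend. The number of arrays limits the precision.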

Additional observations from a re-analysis of the deposited data

How the results depend on the processing

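Gzma lay below 0 with an unadjusted limma p under 0.05 under all 18 alternatives, at -1.77 to -0.83, and from -1.77 to -0.99 with 1 array left out. Gzmb lay above 0 under all 18, at 0.22 to 0.61, and from 0.33 to 0.61 with 1 array left out, with an unadjusted p under 0.05 in 7. Array weights called 2174 genes and 1 member (Gzma, -0.83, limma adjusted p = 0.0471), but the weights did not converge; gene-by-gene weights, chosen after seeing the data, called 2 genes and 0 members. With the other alternatives, the replicate block and each array left out included, 0 genes passed; the block left 0 members passing and Gzma at -1.40 with limma adjusted p = 0.183, and it changed no call after adjustment. Before adjustment it brought Snap23, Stx8, Lyst, Serpinb1a, Casp8, Tnf, Txk, Kit, Sox13, Itgam and Jchain of the lists under 0.05. Members at an unadjusted p under 0.05 numbered 1 after quantile normalization, 1 without both arrays numbered 1, and 1 to 2 with 1 array left out (1 without each array except GPR15+ replicate 6). Prf1 had an unadjusted limma p under 0.05 in 4 of the 18, in which Gzmb did not. These were both kinds of array weights, and the intensity trend removed with and without the block. Genes at that mark numbered 1214, 2411 with the block, 4101 without both arrays numbered 1, 713 without the 40% dimmest genes, 6534 with array weights and 4340 with gene-by-gene weights. With 1 array left out they numbered 4351 without GPR15+ replicate 1, and 668 to 824 without any other. With the block and median centring they numbered 2289, and with the block and the intensity trend removed 2098, both chosen after seeing the data. Fasl turned to -0.011 without both arrays numbered 1, and Gzmk, Prf1 and Nkg7 kept their signs in every alternative in which they were tested. Centring moved the Gzmk difference from -0.20 to -0.13, quantile normalization to -0.08. Gzmk was not tested without the 40% dimmest genes. The median of the members was 0.13 to 0.33 with 1 array left out. The causes of these shifts were not tested.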
